A study of Mus musculus with 16 samples.

Results

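Memory CD8 T cells of the lung were set against memory CD8 T cells of the draining lymph node, in mice with autoimmunity against pigment cells after melanoma. The comparison holds the 2322 cells whose names begin with the lung label and the 1625 cells whose names begin with the lymph node label, 3947 of the 5727 cells measured by single-cell RNA sequencing in all. Both tissues held Pmel T cells, which express a transgenic receptor for gp100, an antigen of melanoma and melanocytes, and are CD8+ and Thy1.1+. The mice were C57BL/6, 16 weeks old, had melanoma-associated vitiligo and were taken 45 days after tumor surgery, and all of this also holds for the liver and skin cells used below as a yardstick. Lungs were digested with Liberase and DNase I and their cells purified on Percoll, and the lymph node was dissociated by mechanical means only. How many mice gave cells, how the cells were sorted, and whether lung cells inside blood vessels were told from those in tissue were not given in the sources used here. Since the 4 samples of each tissue differ in title only by an ending in the form of a flow cell lane, each tissue was read as 1 library. No replicates exist for any value, and no test could be made.

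Levels are given in CPM, the counts a gene received for every 1000000 counts in the pooled cells of its tissue. Ratios carry an exact 95% interval for counts, and shares of cells were taken after every cell was thinned to 1886 counts, with a Clopper-Pearson interval. Both kinds of interval cover counting error alone and leave out any spread among mice or libraries.

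Memory CD8 T cells differ in where they travel. Central memory cells enter lymph nodes through CCR7 and keep the factor TCF-1, while effector memory cells circulate through blood and organs with granzymes ready to use. The factor KLF2 switches on S1PR1, a receptor that draws T cells out of tissue toward the lipid sphingosine 1-phosphate. Tissue-resident cells shut both genes down and stay in place with the help of CD69, the chemokine receptor CXCR6 and CD103, the integrin chain encoded by Itgae that holds E-cadherin of epithelium.

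Both libraries carried the T cell program their label names. All 8 CD8 T cell markers were present, with a summed level of 17902 CPM in lung and 26319.6 CPM in lymph node. Of 9 macrophage and monocyte markers, 8 were listed and summed to 62.3 CPM in lung and 16.1 CPM in lymph node, with Csf1r and Adgre1 at 0 in both. The widest spread of these, Lyz2, a lysozyme gene of myeloid cells, was counted in 5.47% of lung cells and 1.27% of lymph node cells, and the airway secretory gene Scgb1a1 in 2.54% of lung cells and 0 lymph node cells. Of 8 markers of B cells and plasma cells, 6 were listed and summed to 32.1 CPM in lung and 62.2 CPM in lymph node, with Igkc counted in 2.15% of lung cells and 1.87% of lymph node cells and H2-Aa in 1.12% of lung cells and 2.95% of lymph node cells. Of 5 gamma delta T cell markers, 2 were listed and summed to 17 CPM in lung and 84.7 CPM in lymph node. The wider spread of the pair was Cd163l1 in lung, in 1.71% of cells, and Trdc in lymph node, in 8.43% of cells. CD8 T cells should lack the myeloid, airway and B cell genes, so a lung share at or below that of Lyz2 is read as background. For a gene lower in lung at such a share, the lung level may be background and the size of the ratio is uncertain. Summed counts were 8072278 in lung and 4532333 in lymph node, with medians of 2943 and 2649 counts per cell, and 7 cell barcodes occurred in both. At equal depth lung cells held fewer genes, a median of 824 in lung and 919 in lymph node.

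The libraries also stood apart in ways that run through every result. Malat1, a nuclear noncoding RNA, stood at 15919 CPM in lung, 17811 in liver, 37924 in skin and 40909 in lymph node. The 14 listed pseudogenes summed to 2149 CPM in lung, 2102 in liver, 7766 in skin and 7074 in lymph node. Cell names of skin and lymph node end the tissue with a 2 that lung and liver names lack, for a reason that was not given in the sources used here. Lung was therefore compared with lymph node across this difference between libraries, and its part in the results cannot be told apart from that of the tissue. Genes with a close copy elsewhere in the genome were more often past 2-fold lower in lung, but were not lower as a class. Of 371 such genes, 124 (33.4%) were at least 2-fold lower in lung, against 1536 (17.7%) of 8676 others. Their median log2 ratio was -0.39, against -0.41 for the others. The listed genes with a close copy summed to 215558 CPM in lung and 212681 CPM in lymph node.

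Of 9047 genes with 20 or more counts summed over the pair of tissues, 324 (3.58%) stood at least 2-fold higher in lung and 1660 (18.3%) at least 2-fold lower. The median log2 ratio over all of them was -0.41. It depended on abundance, from -0.69 among the 2472 genes under 10 CPM to 0.13 among the 159 genes of at least 1000 CPM. Higher genes made up 16.3% of those past 2-fold on this scale, 34.6% with size factors from median ratios, which raised the median of all genes to -0.12, and 51.2% when each gene was centred on genes of like abundance. A list of genes is therefore read below against the median of -0.41 and the background shares of 3.58% and 18.3%. These shares stand for the 2-fold counts of every list on this scale. The shares higher and lower were 5.33% and 10.1% with size factors, and 6.69% and 6.38% after centring. The lists hold 760 genes, of which 700 were listed in the data and 693 had enough counts.

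**Figure D1:**
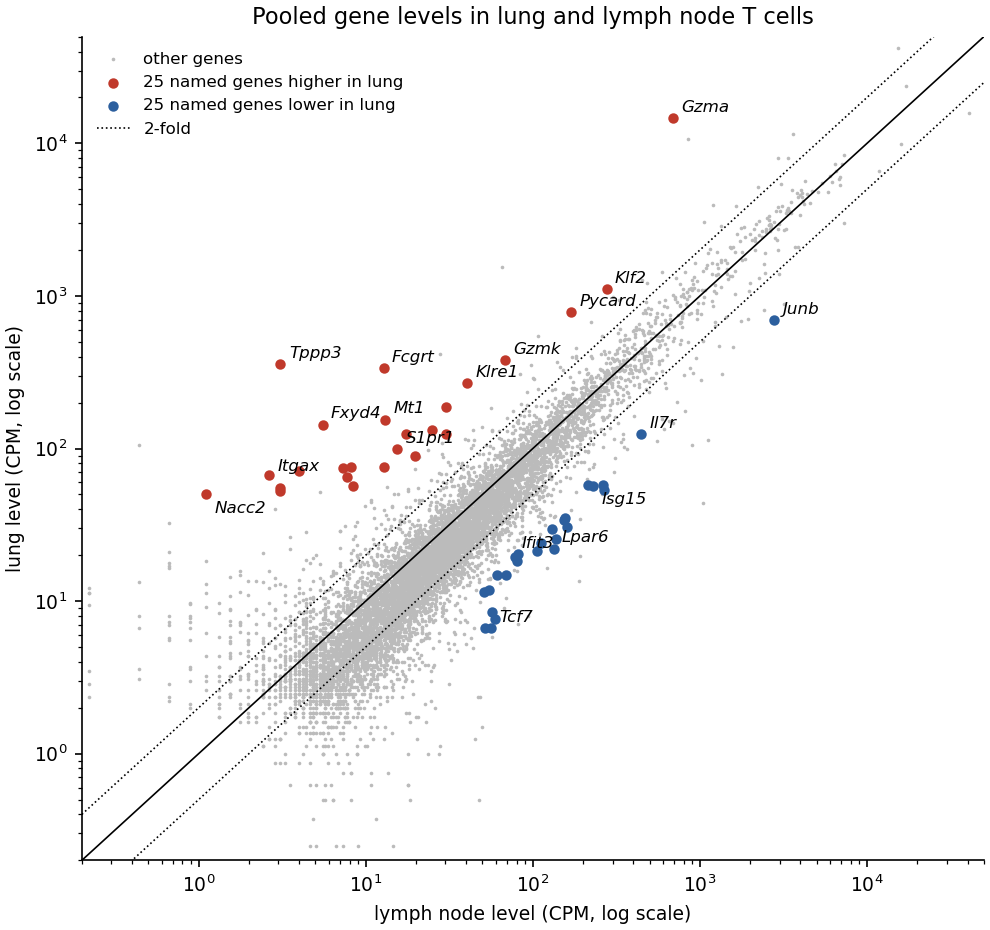
Pooled level of each gene in lung (vertical axis) and lymph node (horizontal axis), in CPM on log scales, with dotted lines at 2-fold. Red and blue points are the 25 named genes in each direction, and the grey cloud bends below the line of equality at low levels, where the median log2 ratio was -0.69.

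**Figure D2:**
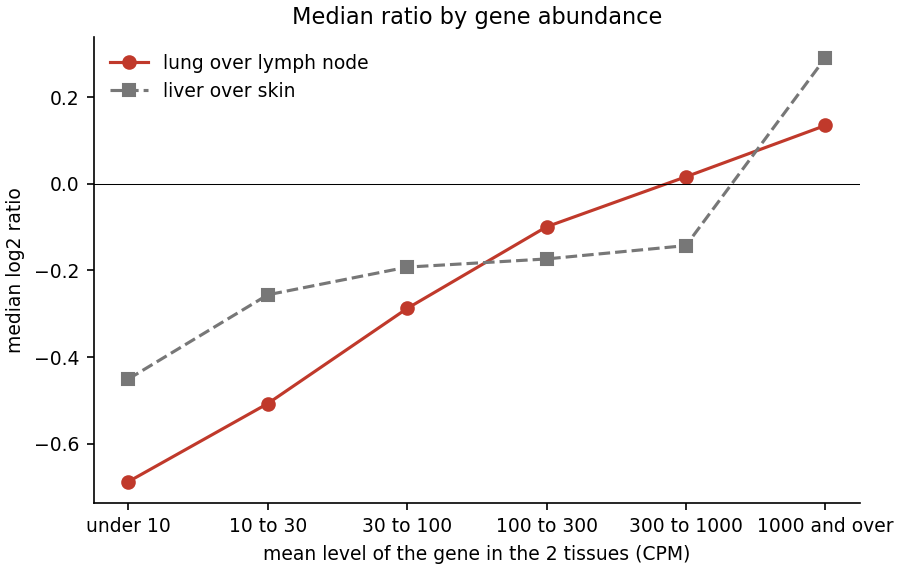
Median log2 ratio of lung over lymph node and of liver over skin, by the mean level of the gene in the pair of tissues (CPM). Lung over lymph node climbs from -0.69 to 0.13, and liver over skin, which shares no library with it, from -0.45 to 0.29.

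Tissue exit genes differed in both directions, with more of them past 2-fold higher in lung than lower. Ly6c2, the gene of a Ly6C surface protein of effector and memory cells, had the highest log2 ratio of the list. It stood at 1559.8 CPM in lung, 1392 in liver, 64.7 in skin and 65.5 in lymph node and was counted in 76.3% (74.4 to 78.2) of lung cells and 5.29% (4.21 to 6.55) of lymph node cells, although its close copy Ly6c1 leaves its level uncertain. Klf2 stood at 1115 CPM in lung, 1616 in liver, 134 in skin and 276 in lymph node. It was counted in 79.2% (77.4 to 80.9) of lung cells and 22% (19.9 to 24.1) of lymph node cells, and its level was 4.04-fold higher in lung (95% interval 3.8 to 4.28). Lung and liver were high and skin and lymph node low. S1pr1, the exit receptor that KLF2 switches on, stood at 99.4 CPM in lung, against 15.4 CPM in lymph node, and was counted in 17.7% of lung cells and 2.54% of lymph node cells. Rasgrp2, which activates the GTPase Rap1 and with it integrins, was 3.64-fold higher (3.27 to 4.06), and S1pr4, another receptor for the same lipid, was 2.23-fold higher (2.07 to 2.41). Klf3, a relative of Klf2, was 2.46-fold higher (1.63 to 3.82), but its share of 3.56% of lung cells lay under that of Lyz2. Klrg1, a marker of terminal effector cells, had 127 counts in lung and 0 in lymph node. With 3 counts put in place of the 0, Klrg1 was 23.8-fold higher, which is not a bound. Its share of 1.9% of lung cells was also under that of Lyz2, so no expression is read from it. Of 22 tissue exit genes with enough counts, 9 stood at least 2-fold higher in lung and 5 at least 2-fold lower, with a list median of 0.46 (log2). The 5 lower ones include the lymph node homing gene Ccr7, with Tcf7, Slamf6 and Itga4, and the interval of Itga4 held equality.

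Residency genes did not move as one. Itgae stood at 191 CPM in lung and 373 CPM in lymph node and was counted in 30.8% (28.8 to 32.8) of lung cells and 49.3% (46.7 to 51.8) of lymph node cells. Cxcr6 was counted in nearly as many lung cells as lymph node cells, 85.1% and 89.2%, although its level was 1.84-fold lower (1.79 to 1.9). Cd69, at 127 CPM in lung and 94.9 CPM in lymph node, was counted in 19.3% of lung cells and 13.4% of lymph node cells. The list of residency genes had 2 members at least 2-fold higher in lung and 12 at least 2-fold lower among 34, and the median log2 ratio was -0.84. The 2 higher ones were Ifng, the gene of interferon gamma, and Ctla4. The lung level of Ctla4 was 18.7 CPM in cells with an Itgae count and 19.4 CPM in those without. Both lay under the levels of Lyz2 there, 27.2 and 30.7 CPM. Among cells without an Itgae count the interval of Ctla4 held equality (0.975 to 2.72). Genes at least 2-fold lower were, among others, Ccr8, a chemokine receptor, at 13-fold lower, Inpp4b, a lipid phosphatase gene, at 3.68-fold lower, Cd101 at 3.86-fold lower and Qpct, whose enzyme cyclises glutamine at the end of proteins, at 2.95-fold lower. Zfp683, the gene of the residency factor Hobit, had 2.23 CPM in lung, against 7.5 CPM in lymph node, and its share of 0.488% of lung cells and 1.34% of lymph node cells was at the background level in both. Prdm1, the gene of its relative Blimp-1, was 1.66-fold lower (1.22 to 2.27), and Runx3, another residency factor, 1.51-fold lower (1.34 to 1.71).

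Lung cells held Klf2 and Gzma at shares that overlapped in their intervals whether or not Itgae was counted in the same cell. At equal depth, Gzma was counted in 92.6% (90.2 to 94.5) of the 631 lung cells with an Itgae count and in 91.6% (90 to 93) of the 1418 without one. In the lymph node it was counted in 19.8% (17 to 22.9) of 736 cells with an Itgae count and in 16.5% (13.9 to 19.3) of 758 without one. Klf2 was counted in 78.6% (75.2 to 81.7) of lung cells with Itgae and 79.5% (77.3 to 81.6) without, against 18.2% (15.5 to 21.2) and 25.6% (22.5 to 28.9) in the lymph node. Each lung share was far above both lymph node shares, whether Itgae was counted or not. Cxcr6 behaved otherwise in the node, with a count in 95.4% (93.6 to 96.8) of cells with Itgae and 83.1% (80.3 to 85.7) without, against 85.6% (82.6 to 88.2) and 84.8% (82.9 to 86.7) in lung. Among cells with an Itgae count before thinning, the level of Klf2 was 4.52-fold and that of S1pr1 7.94-fold higher in lung. Without thinning, Gzma was counted in 88.9% of lung cells and 20.7% of lymph node cells, Klf2 in 88.2% of lung cells and 26.3% of lymph node cells, and Itgae in 44.1% of lung cells and 59.7% of lymph node cells. A missing count does not show a missing transcript, so the groups without Itgae hold an unknown number of cells that express it.

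**Figure D3:**
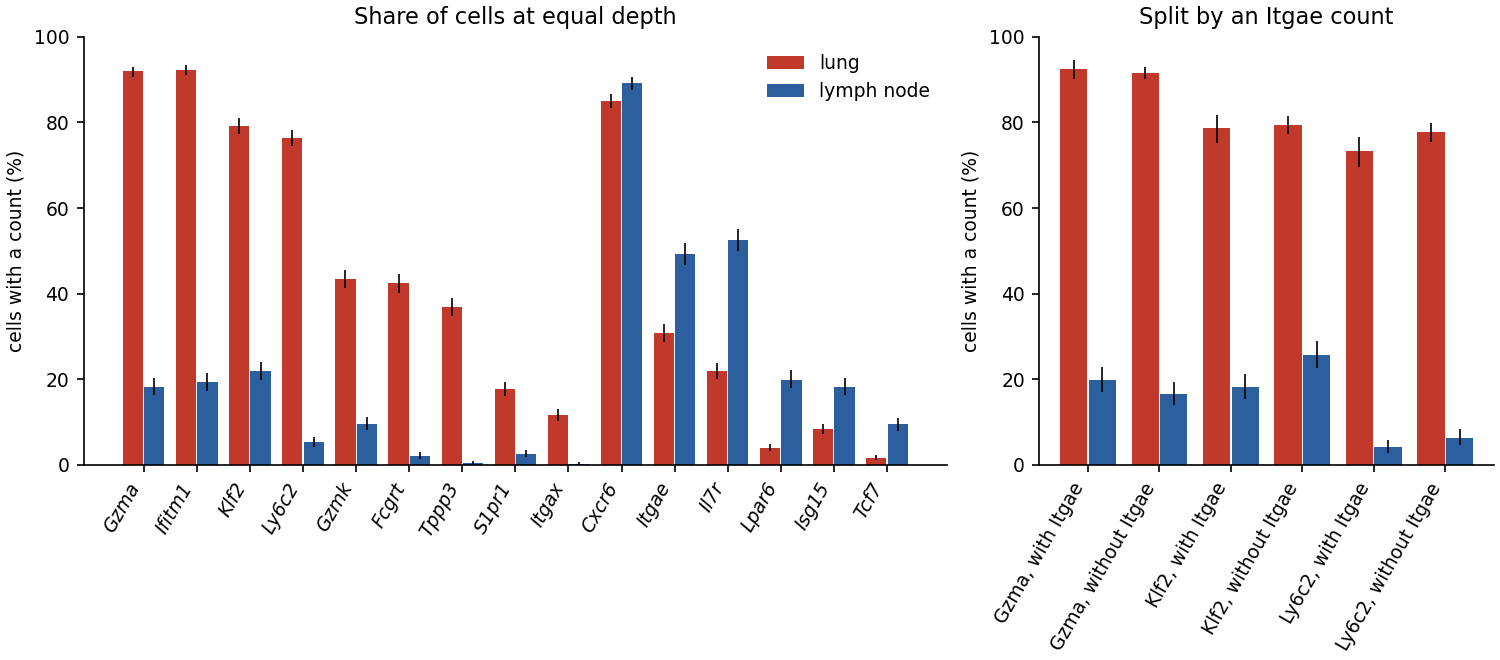
Percent of cells with a count of each gene after thinning to 1886 counts, in lung (red) and lymph node (blue), with 95% Clopper-Pearson intervals (counting error only). The right panel splits the cells by an Itgae count, and the lung share of Gzma is 92.6% with and 91.6% without Itgae.

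Most genes of central memory were lower in lung, and the difference was spread over homing receptors, transcription factors and costimulatory ligands. Among 15 central memory genes, 0 were higher in lung by at least 2-fold and 10 lower, and the list's median was -1.78 on the log2 scale. Il7r, the gene of the receptor for the survival cytokine interleukin-7, stood at 125 CPM in lung, 146 in liver, 72.9 in skin and 443 in lymph node and was counted in 21.9% (20.1 to 23.7) of lung cells and 52.5% (49.9 to 55) of lymph node cells. Its lung level was thus below that of the node, while liver lay above skin. Ltb, the gene of lymphotoxin beta, stood at 703 CPM in lung, against 1939 CPM in lymph node and was counted in 68.6% of lung cells and 90.6% of lymph node cells. Tcf7, the gene of TCF-1, was counted in 1.56% (1.07 to 2.2) of lung cells and 9.44% (8.0 to 11) of lymph node cells. Lef1, a relative of Tcf7, was 3.87-fold lower (2.46 to 6.23), and Id3, a memory factor, 3.43-fold lower (2.32 to 5.13). Bcl2, a survival gene kept by memory cells, did not differ beyond counting error, with 47.9 CPM in lung and 45.5 CPM in lymph node and an interval of 0.888 to 1.26. Among cells with an Itgae count the list's median was -0.87 over 13 members.

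The granzyme genes stood higher in lung to very different degrees. Gzma, the gene of granzyme A, stood at 14637 CPM in lung, 11049 in liver, 1401 in skin and 692 in lymph node, and Gzma was counted in 91.9% (90.6 to 93) of lung cells and 18.1% (16.2 to 20.2) of lymph node cells. Where it was counted before thinning, it averaged 57.2 counts per cell in lung and 9.33 in lymph node, so both the share and the amount were higher in lung. Gzmk, the gene of granzyme K, was counted in 43.4% of lung cells and 9.57% of lymph node cells and was 5.55-fold higher (4.94 to 6.26). Gzmb, the gene of granzyme B, differed by less, at 1133 CPM in lung, against 884 CPM in lymph node and in 73% of lung cells and 51.1% of lymph node cells. Prf1, the gene of the pore protein perforin, had an interval that held equality, with 14.7 CPM in lung and 16.5 CPM in lymph node. It was counted in 2.78% of lung cells and 3.01% of lymph node cells, under the background of Lyz2 in lung, so equal expression is not read from it. Nkg7, a granule protein gene, was 1.38-fold higher (1.36 to 1.41), and Fasl, the gene of the death ligand, was 1.46-fold lower (1.29 to 1.65). Serpinb6b and Serpinb9, genes of granzyme inhibitors, were 3.61-fold higher (2.68 to 4.95) and 2.47-fold higher (1.59 to 3.98), with lung shares of 5.81% and 2.1%, close to and under the background. Gzmm, the gene of granzyme M, was 13.9-fold higher (8.02 to 26.4) at a lung share of 4.98%, again at the background level. Of 22 killing genes with enough counts, 5 stood at least 2-fold higher in lung and 0 at least 2-fold lower, with a list median of 0.12 (log2).

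Some of the named higher genes are neighbours in the genome. In GRCm38, Gzma spans 113093825 to 113100981 and Gzmk 113171608 to 113225908 on chromosome 13, both on the reverse strand, 70.6 kb apart. Esm1, which encodes a secreted proteoglycan of endothelium, spans 113209659 to 113218098 on the forward strand inside the span of Gzmk. It stood at 75.9 CPM in lung, against 12.8 CPM in lymph node. Whether strand was used in counting was not given in the sources used here, so reads of Esm1 and Gzmk cannot be told apart. Pycard, the gene of the inflammasome adaptor ASC, lies 136 kb from Itgax on chromosome 7. Pycard stood at 782 CPM in lung, against 169 CPM in lymph node and was counted in 67.3% of lung cells and 24.5% of lymph node cells. The pairs were looked for after their values were seen, among the 25 named higher and 25 named lower genes with a limit of 200 kb, and the others were Mt1 with Mt2 and, among lower genes, Ifit1 with Ifit3.

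Surface receptors of the natural killer and Fc type went both ways. Klre1, a lectin-like receptor gene of the natural killer complex, stood at 268 CPM in lung, against 40.4 CPM in lymph node and was counted in 34% of lung cells and 5.49% of lymph node cells. Klrd1, the gene of CD94, which pairs with NKG2 chains, was 2.81-fold higher (2.68 to 2.95) and was counted in 83.8% of lung cells and 49% of lymph node cells, and Klrk1, the gene of the activating receptor NKG2D, was 1.26-fold higher (1.21 to 1.31). Fcgrt, the gene of the neonatal Fc receptor, which carries antibody and albumin across cells, was counted in 42.4% (40.3 to 44.6) of lung cells and 2.08% (1.41 to 2.93) of lymph node cells. It stood at 338 CPM in lung, 274 in liver, 9.11 in skin and 12.8 in lymph node. Fcer1g and Fcgr2b, genes of Fc receptor chains, were past 2-fold too, but at 2.93% and 2.05% of lung cells they lay under Lyz2. On the lower side, Clec2d, the gene of a ligand for NKR-P1 receptors, was 5.46-fold lower (4.65 to 6.42), and Cd160, the gene of a receptor for HVEM, was 20.6-fold lower (12.9 to 34.9). A single lung cell held 36.8% of the lung counts of Cd160, and without the cell with the most counts in each tissue the log2 ratio of Cd160 was -4.98, against -4.37 with them. The list of natural killer and Fc receptor genes had 6 members at least 2-fold higher in lung and 3 at least 2-fold lower among 16, and the list's median was 0.33 on the log2 scale.

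Among integrins, single chains moved in opposite ways. Itgax, the gene of CD11c, a chain used by dendritic cells and by activated CD8 T cells, stood at 67.1 CPM in lung, 51.3 in liver, 5.77 in skin and 2.65 in lymph node and was counted in 11.6% (10.2 to 13) of lung cells and 0.268% (0.073 to 0.684) of lymph node cells. The dendritic cell markers listed here were 4 of 7, Itgax among them, and summed to 167 CPM in lung and 277 CPM in lymph node, so the list as a whole did not follow Itgax. Itgb1, the beta 1 chain that binds matrix, was 3.03-fold higher (2.84 to 3.25) and was counted in 68% of lung cells and 30.3% of lymph node cells. Itgb7, the partner of the Itgae product, was 1.41-fold higher (1.35 to 1.48), whereas Itgal, the LFA-1 alpha chain, was 1.79-fold lower (1.64 to 1.95). Cd48, the gene of a ligand for the receptor 2B4, stood at 1432 CPM in lung, against 594 CPM in lymph node. Among 24 integrin and adhesion genes, 3 were higher in lung by at least 2-fold and 2 lower. Their median on the log2 scale was -0.01, and 0.27 with size factors.

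Receptors for chemokines and lipids were mixed. Of 18 receptor genes with enough counts, 2 stood at least 2-fold higher in lung and 6 at least 2-fold lower, with a median of -0.81 on the log2 scale, and the 2 higher ones were S1pr1 and S1pr4. Lpar6, the gene of a lysophosphatidic acid receptor, was counted in 3.95% (3.15 to 4.89) of lung cells and 19.9% (17.9 to 22.1) of lymph node cells and stood at 22.1 CPM in lung and 133 CPM in lymph node. Ptger4, the gene of a prostaglandin E2 receptor, was 2.77-fold lower (2.36 to 3.26). The inflammatory homing receptor gene Cxcr3 was 1.7-fold lower (1.6 to 1.8), while Ccr2 was 1.3-fold higher (1.22 to 1.39) and Cx3cr1, of effector cells in blood, 1.68-fold higher (1.41 to 2.0). The chemokine and cytokine genes themselves split, with 5 at least 2-fold higher and 7 at least 2-fold lower among 17. Ccl5 was counted in 100% of lung cells and 96% of lymph node cells and was 2.76-fold higher (2.73 to 2.78). The interleukin-16 gene Il16 was 2.42-fold lower (2.16 to 2.72). Il2, the gene of interleukin-2, was 3.28-fold lower (2.64 to 4.08), although a close copy of its 3′ end leaves its value uncertain.

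Cytokine receptor genes went both ways. Ifngr1, the gene of the ligand-binding chain for interferon gamma, was 2.28-fold higher (2.06 to 2.52) and was counted in 35.6% of lung cells and 18% of lymph node cells. Socs2, an inhibitor of cytokine signalling, was 2.15-fold higher (1.82 to 2.56). In the other direction, Il27ra, a chain for interleukin-27, was 3.03-fold lower (2.57 to 3.59), Il21r, for interleukin-21, was 2.74-fold lower (2.38 to 3.16), and Ifnar2, a chain of the type I interferon receptor, was 2.12-fold lower (1.85 to 2.44). The list of cytokine receptor genes had 3 members at least 2-fold higher in lung and 8 at least 2-fold lower among 34, with a list median of -0.60 (log2). None of the 21 genes of the TNF superfamily and costimulation stood 2-fold higher in lung and 12 stood at least 2-fold lower, with a median of -1.05. Cd40lg, the gene of CD40 ligand, was 4.62-fold lower (3.64 to 5.91), Tnfsf10, the gene of the death ligand TRAIL, 4.12-fold lower (3.31 to 5.15), and Tnfsf14, the gene of LIGHT, 3.04-fold lower (2.28 to 4.07). Their lung shares were 2.25%, 2.68% and 2.1%, under that of Lyz2.

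Genes of the T cell receptor and its coreceptors were not all shifted alike. Cd8a was 2.56-fold lower (2.48 to 2.65), with 687 CPM in lung, against 1760.5 CPM in lymph node, while Cd8b1, which encodes the partner chain of the same coreceptor, was 1.36-fold higher (1.33 to 1.4), with 2959 CPM in lung, against 2172 CPM in lymph node. Liver and skin showed the pair in the same way, with 772 CPM of Cd8a in liver and 1374 in skin, and 2915 CPM of Cd8b1 in liver and 1429 in skin. Cd3e was 1.25-fold lower (1.2 to 1.31). Ubash3a, which encodes a brake on receptor signalling, was 3.43-fold lower (2.8 to 4.22), and Ikzf3, the gene of the lymphoid factor Aiolos, was 2.18-fold lower (1.91 to 2.49). Of 38 receptor signalling genes with enough counts, 1 stood at least 2-fold higher in lung and 7 at least 2-fold lower, and the median log2 ratio of -0.55 was near that of all genes. Among transcription factors, Nacc2, a transcriptional repressor gene, stood at 50.3 CPM in lung, against 1.1 CPM in lymph node and was counted in 8.83% of lung cells and 0.268% of lymph node cells. Factors of effector fate differed little, with Tbx21, the gene of T-bet, 1.24-fold lower (1.05 to 1.45), Zeb2 1.42-fold higher (1.09 to 1.87) and Id2 1.29-fold lower (1.26 to 1.32). Tox, a factor of exhausted cells, was 14.2-fold lower (7.98 to 27.7) at 1.61 CPM in lung and 22.9 CPM in lymph node. Of 38 transcription factor genes with enough counts, 4 stood at least 2-fold higher in lung and 8 at least 2-fold lower, with a median of -0.16, which was 0.13 with size factors.

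The list of S100, annexin and galectin genes had the highest median of the 29 lists. It also holds genes outside these families. Among 23 members, 12 were at least 2-fold higher in lung, with Ifitm1, Ifitm2, Lmna and Crip1 from outside the families. The 1 member at least 2-fold lower, Ifitm10, was from outside them too. The median log2 ratio was 1.08, with 22 of 23 members above the median of all genes, which depends on abundance. After centring on abundance the list's median was 0.96, with 11 members at least 2-fold higher. Lgals1, the gene of galectin-1, a sugar-binding protein of effector cells, stood at 11529 CPM in lung, against 3603 CPM in lymph node, and Lgals3, the gene of galectin-3, at 3955 CPM in lung, against 1198 CPM in lymph node. Nearly every cell of either tissue held Lgals1, with a count in 100% of lung cells and 93.4% of lymph node cells. S100a4, S100a6 and S100a10, genes of calcium-binding proteins, were 2.15-fold higher, 2.38-fold higher and 2.32-fold higher in lung. Anxa1 and Anxa2, genes of membrane-binding annexins, were 2.16-fold higher (2.0 to 2.33) and 2.54-fold higher (2.35 to 2.74). Crip1, the gene of a small LIM protein, stood at 8036 CPM in lung, 7588 in liver, 6925 in skin and 2941 in lymph node, so skin lay close to lung and liver for this gene and the node alone was low. Lmna, the gene of nuclear lamins A and C, was 3.63-fold higher (3.28 to 4.02), with 1165 CPM in skin, above every other tissue. Ifitm1, an interferon-inducible membrane protein gene placed in this list, was counted in 92.3% of lung cells and 19.3% of lymph node cells, and it has a near-identical pseudogene, which leaves its level uncertain.

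Among cytoskeleton genes, Tppp3, the gene of a tubulin polymerization-promoting protein, had the interval farthest from equality of all named genes. It stood at 358 CPM in lung, 269 in liver, 106 in skin and 3.09 in lymph node and was counted in 36.8% (34.8 to 39) of lung cells and 0.402% (0.148 to 0.872) of lymph node cells. Skin thus lay above the node and below lung and liver for this gene. Vim, the gene of the intermediate filament vimentin, was 2.89-fold higher (2.81 to 2.98), and Actg1, a gene of cytoplasmic actin, 2.35-fold higher (2.3 to 2.42). Myh9, the gene of a nonmuscle myosin heavy chain, was 2.36-fold lower (2.07 to 2.7). Among 37 cytoskeleton genes, 4 were higher in lung by at least 2-fold and 2 lower, and the list's median was 0.25 on the log2 scale.

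**Figure D4:**
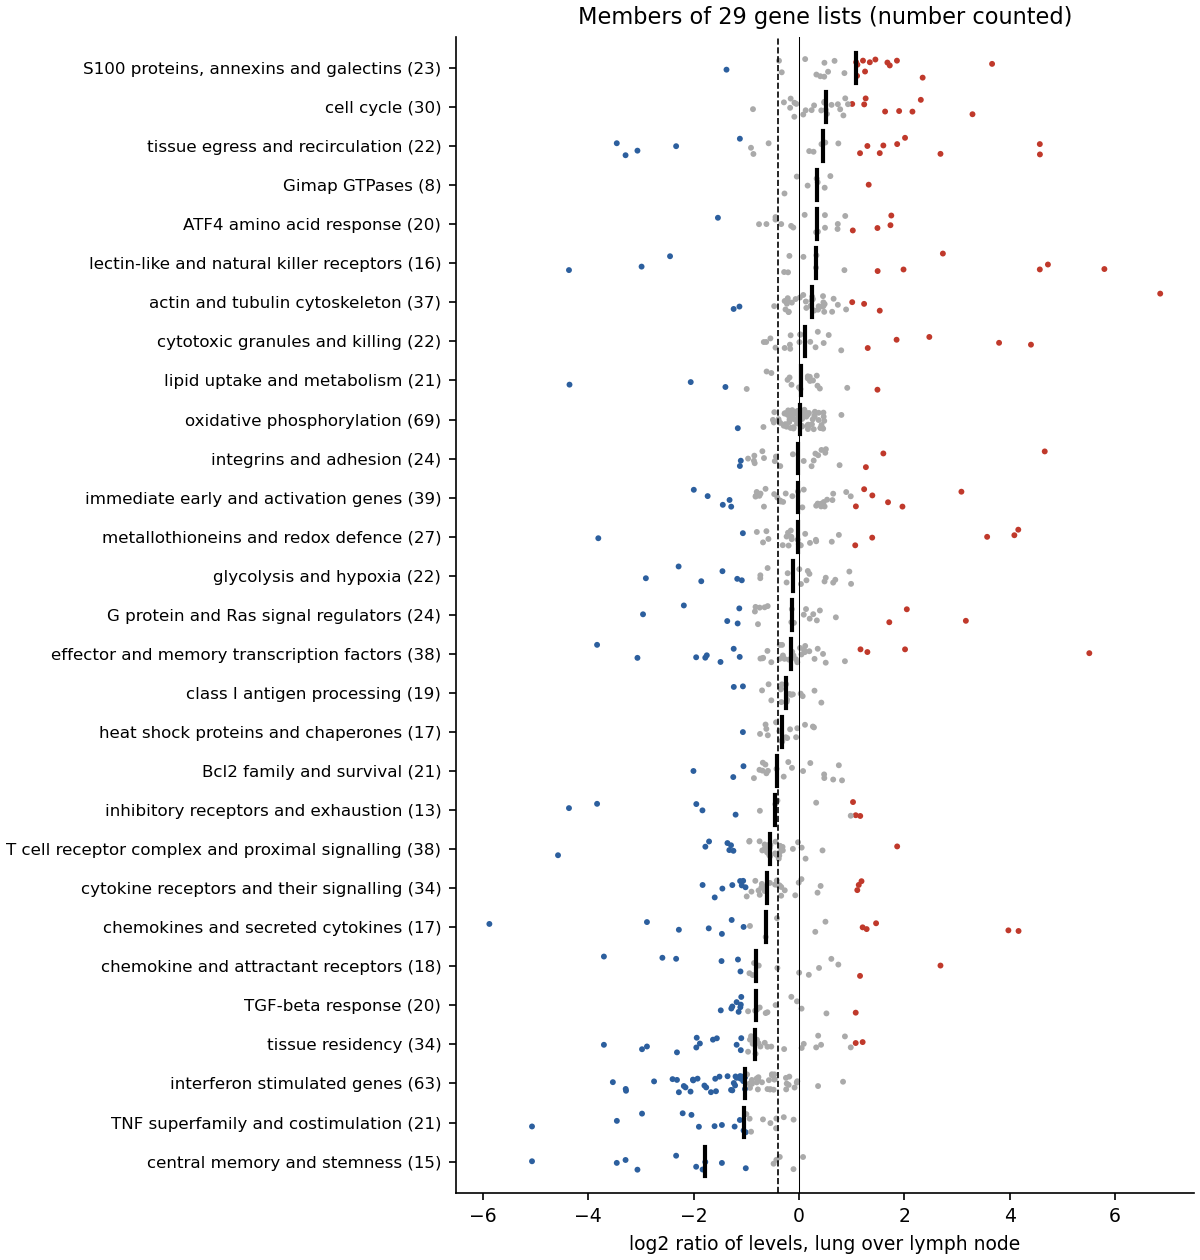
Log2 ratio of lung over lymph node for each counted member of 29 gene lists, red where at least 2-fold higher in lung and blue where at least 2-fold lower. Black bars mark list medians, from 1.08 for S100 proteins, annexins and galectins to -1.78 for central memory, and the dashed line marks the median of all genes, -0.41.

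Metallothioneins, small proteins that bind zinc and copper, were higher in lung. Mt1 stood at 155 CPM in lung, 127 in liver, 42.8 in skin and 13 in lymph node and was counted in 17.6% (16 to 19.3) of lung cells and 1.81% (1.19 to 2.62) of lymph node cells. Mt2 stood at 52.5 CPM in lung, 46.7 in liver, 9.72 in skin and 3.09 in lymph node, with a share of 5.81% of lung cells and 0.602% of lymph node cells, just above Lyz2 in lung. For both genes lung and liver lay above skin, and skin above lymph node. The genes lie 5.51 kb apart on chromosome 8 in GRCm38. Their promoters are shown because both genes answer to metal through the factor MTF-1, which binds metal response elements. Capitals mark TGCACNC or TGCGCNC on the printed strand and GNGTGCA or GNGCGCA, the same letters on the other strand.
Mt2: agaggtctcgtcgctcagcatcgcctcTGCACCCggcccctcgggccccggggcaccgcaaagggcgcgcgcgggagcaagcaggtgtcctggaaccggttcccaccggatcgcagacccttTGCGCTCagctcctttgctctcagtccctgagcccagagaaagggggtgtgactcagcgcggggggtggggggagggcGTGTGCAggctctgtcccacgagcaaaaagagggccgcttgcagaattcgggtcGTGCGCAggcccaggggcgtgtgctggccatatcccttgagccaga
Mt1: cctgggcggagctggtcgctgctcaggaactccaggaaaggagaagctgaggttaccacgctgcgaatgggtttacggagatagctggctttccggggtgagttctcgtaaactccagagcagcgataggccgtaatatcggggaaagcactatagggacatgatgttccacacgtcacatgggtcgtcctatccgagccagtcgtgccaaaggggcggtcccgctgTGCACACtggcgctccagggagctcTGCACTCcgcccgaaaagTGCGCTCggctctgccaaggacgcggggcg
The windows run from 250 bases before to 50 bases after the gene start on the forward strand, at chr8:94172368-94172667 for Mt2 and chr8:94178839-94179138 for Mt1, from RefSeq on GRCm38.p6. The Mt2 window holds 4 matches and the Mt1 window 3, and windows with 3 or more make up 1.97% of 32851 promoters. A match is a description of letters and not a measured site. Slc30a1, a zinc exporter gene that MTF-1 also drives, was at 2.6 CPM in lung and 2.65 CPM in lymph node, and its interval held equality. These levels lay under that of Lyz2 in lung, so neither a difference nor its absence is read from them. Ggt1, whose enzyme starts the breakdown of extracellular glutathione, stood at 71.1 CPM in lung, against 3.97 CPM in lymph node. Of 27 metal and redox genes with enough counts, 5 stood at least 2-fold higher in lung and 2 at least 2-fold lower. Their median log2 ratio of -0.03 turned to 0.26 with size factors.

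Many interferon stimulated genes were lower in lung. The list of interferon stimulated genes had 0 members at least 2-fold higher in lung and 32 at least 2-fold lower among 63, a share of 50.8% against the background of 18.3%, and the median log2 ratio was -1.02. It was -0.74 with size factors and -0.76 after centring on abundance, with 21 members at least 2-fold lower under each. The background shares of lower genes were then 10.1% and 6.38%. Isg15, the gene of a ubiquitin-like protein, stood at 57.2 CPM in lung, 152 in liver, 151 in skin and 230.1 in lymph node and was counted in 8.35% (7.18 to 9.63) of lung cells and 18.1% (16.2 to 20.2) of lymph node cells. Ifit1, the gene of a protein that binds foreign RNA, stood at 35.2 CPM in lung, 62.8 in liver, 22.5 in skin and 157 in lymph node and was counted in 4.88% (3.99 to 5.9) of lung cells and 13.8% (12.1 to 15.6) of lymph node cells. For Ifit1 lung and liver lay between skin and the node, and for Isg15 liver was level with skin. Stat2, which relays the interferon signal, was 2.98-fold lower (2.07 to 4.34), and Irf9, its partner on DNA, 1.74-fold lower (1.51 to 2.01). Gbp9, a gene of a guanylate-binding protein, was 6.73-fold lower (5.13 to 8.93), and Usp18, which takes ISG15 off its targets, 4.04-fold lower (2.96 to 5.57). Irf7, a factor that amplifies the response, was 1.71-fold lower (1.53 to 1.91). The antiviral membrane protein genes Ifitm1, Ifitm2 and Ifitm3 are interferon-inducible too but were not among the 63. Ifitm1 and Ifitm2 were placed in the list of S100, annexin and galectin genes. They stood the other way, with Ifitm1 12.7-fold, Ifitm2 5.09-fold and Ifitm3 1.6-fold higher, and the first pair has near-identical copies. The count of 0 higher members thus depends on how the list was drawn up.

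Promoters of a pair of these genes are shown because they hold the interferon response element, the letters bound by the factor complex that holds IRF9. Capitals mark the letters searched, a pair of GAAA blocks with any 2 bases between them, or of TTTC blocks where they lie on the other strand.
Isg15: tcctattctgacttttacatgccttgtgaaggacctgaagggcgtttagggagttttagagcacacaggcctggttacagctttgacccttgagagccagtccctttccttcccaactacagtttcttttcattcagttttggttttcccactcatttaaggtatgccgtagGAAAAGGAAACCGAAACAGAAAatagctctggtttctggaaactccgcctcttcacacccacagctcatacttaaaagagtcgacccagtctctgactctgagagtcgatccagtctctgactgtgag
Ifit1: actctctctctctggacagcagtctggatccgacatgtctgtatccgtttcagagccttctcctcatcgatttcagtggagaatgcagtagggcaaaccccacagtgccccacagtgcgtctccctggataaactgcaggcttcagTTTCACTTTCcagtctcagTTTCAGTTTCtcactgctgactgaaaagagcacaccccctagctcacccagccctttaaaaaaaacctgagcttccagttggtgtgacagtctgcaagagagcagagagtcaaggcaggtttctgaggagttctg
The windows are chr4:156200769-156201068 on the reverse strand for Isg15 and chr19:34640639-34640938 on the forward strand for Ifit1, again from RefSeq on GRCm38.p6. The Isg15 window holds 3 matches that overlap one another and the Ifit1 window 2 apart. Such a match occurs in 3.44% of 32851 promoters and in 30 of 48 counted interferon stimulated genes with a promoter (62.5%). Of the 30, 18 stood at least 2-fold lower in lung and their median log2 ratio was -1.20, and of the 18 without a match, 4 did, with a median of -0.68. Among all counted genes with a promoter sequence, the counts were 57 of 266 (21.4%) with a match and 1145 of 6705 (17.1%) without. These include the interferon stimulated genes, so no difference outside the list is read from them. The interferon list was not drawn up from promoters, but its members are not independent of one another, and no test was made.

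Immediate early genes, which T cells switch on soon after a signal, went both ways. Junb, an AP-1 chain gene, stood at 697 CPM in lung, 1034 in liver, 6837 in skin and 2783 in lymph node and was counted in 61% of lung cells and 79.7% of lymph node cells, and Jun was 3.33-fold lower (2.87 to 3.86). By contrast Dusp2, a phosphatase gene that damps kinase signals, was 2.62-fold higher (2.41 to 2.86), Gadd45b, a stress response gene, 2.36-fold higher (2.01 to 2.77), Cdkn1a, the gene of the cell cycle inhibitor p21, 3.23-fold higher (2.5 to 4.21), and Fos 1.45-fold higher (1.27 to 1.65). Among 39 immediate early genes, 6 were higher in lung by at least 2-fold and 5 lower, with a list median of -0.02 (log2), which was 0.27 with size factors. The lung was digested with enzymes and the node was not, and this cannot be told apart from the tissue.

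Several cell cycle genes stood higher in lung, while respiratory chain genes differed little. Of 30 cell cycle genes with enough counts, 8 stood at least 2-fold higher in lung and 0 at least 2-fold lower, and the list's median was 0.52 on the log2 scale. Ube2c, the gene of a ubiquitin-conjugating enzyme of mitosis, was 9.8-fold higher (6.5 to 15.5), but it was counted in 4.49% of lung cells and 0.402% of lymph node cells, under the background of Lyz2 in lung. The proliferation markers Mki67 and Top2a had intervals that held equality, at 10.7 CPM in lung and 11 CPM in lymph node for Mki67 and 29.7 CPM in lung and 31.6 CPM in lymph node for Top2a. The level of Mki67 lay under that of Lyz2 in lung, so equal expression is not read from it. The count of higher members was 13 with size factors and 14 after centring on abundance, against background shares of 5.33% and 6.69%. Stmn1, the gene of the microtubule regulator stathmin, was 2.01-fold higher (1.8 to 2.26) and was counted in 10.4% of lung cells and 4.62% of lymph node cells. Counts of at least 2 of 8 cycling genes, all members of the list, occurred in 170 lung cells (7.32%) and 31 lymph node cells (1.91%), without thinning. Without these cells the list's median was -0.095, against -0.40 for all genes. The cells were picked by members of the list, so the fall was largely fixed by the choice. The list of respiratory chain genes had 0 members at least 2-fold higher in lung and 1 at least 2-fold lower among 69, with a median of 0.01, and the exception was Ndufa5. Of 22 glycolysis and hypoxia genes, 6 stood at least 2-fold lower and 0 higher. Pkm, the gene of pyruvate kinase, was 2.12-fold lower (1.96 to 2.3) among them. The Gimap GTPases of lymphocyte survival had 8 of 8 members above the median of all genes, with Gimap7 2.5-fold higher (2.06 to 3.06). Since the median of all genes depends on abundance, such a count does too. The Gimap list's median was 0.34, and 0.36 after centring on abundance.

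Lung and liver lay on the same side of the other tissues for most of the named genes, which were picked by lung against lymph node. Liver over skin shares no library with lung over lymph node but runs across the same difference in cell names and pseudogenes. In liver over skin, 5.07% of 8516 genes stood at least 2-fold higher and 16.4% at least 2-fold lower. Of the 277 genes higher in lung than in lymph node that could be read there, 138 (49.8%) were also at least 2-fold higher in liver than in skin, and of 1445 lower ones 687 (47.5%) were also at least 2-fold lower. Of the 25 named higher genes, 23 were at least 2-fold higher in liver than in skin, and in 24 both lung and liver lay above both other tissues. Lung above lymph node was fixed by the choice of these genes, and the share over all genes was not computed. Among all 324 higher genes, 228 (70.4%) had this order. The exception was Crip2, the gene of a LIM protein, at 75.1 CPM in lung, 52.9 in liver, 68.3 in skin and 7.28 in lymph node. Of the 25 named lower genes, 17 were at least 2-fold lower in liver than in skin and 2 at least 2-fold higher. In 20 of them lung and liver lay below both other tissues, and the exceptions were Isg15, Plekhf1, Il7r, Ifit3 and Ifit1. Among all 1660 lower genes, 1351 (81.4%) had this order, with lung below lymph node again fixed by the choice. Skin lay below liver for Plekhf1, Il7r, Ifit3 and Ifit1, while the interval of liver over skin held equality for Isg15. Lrch4, Ccdc85b and Grcc10 were low in lung and liver and high in skin and lymph node, with 53.1 CPM in lung, 53.4 in liver, 335 in skin and 269 in lymph node for Grcc10.

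**Figure D5:**
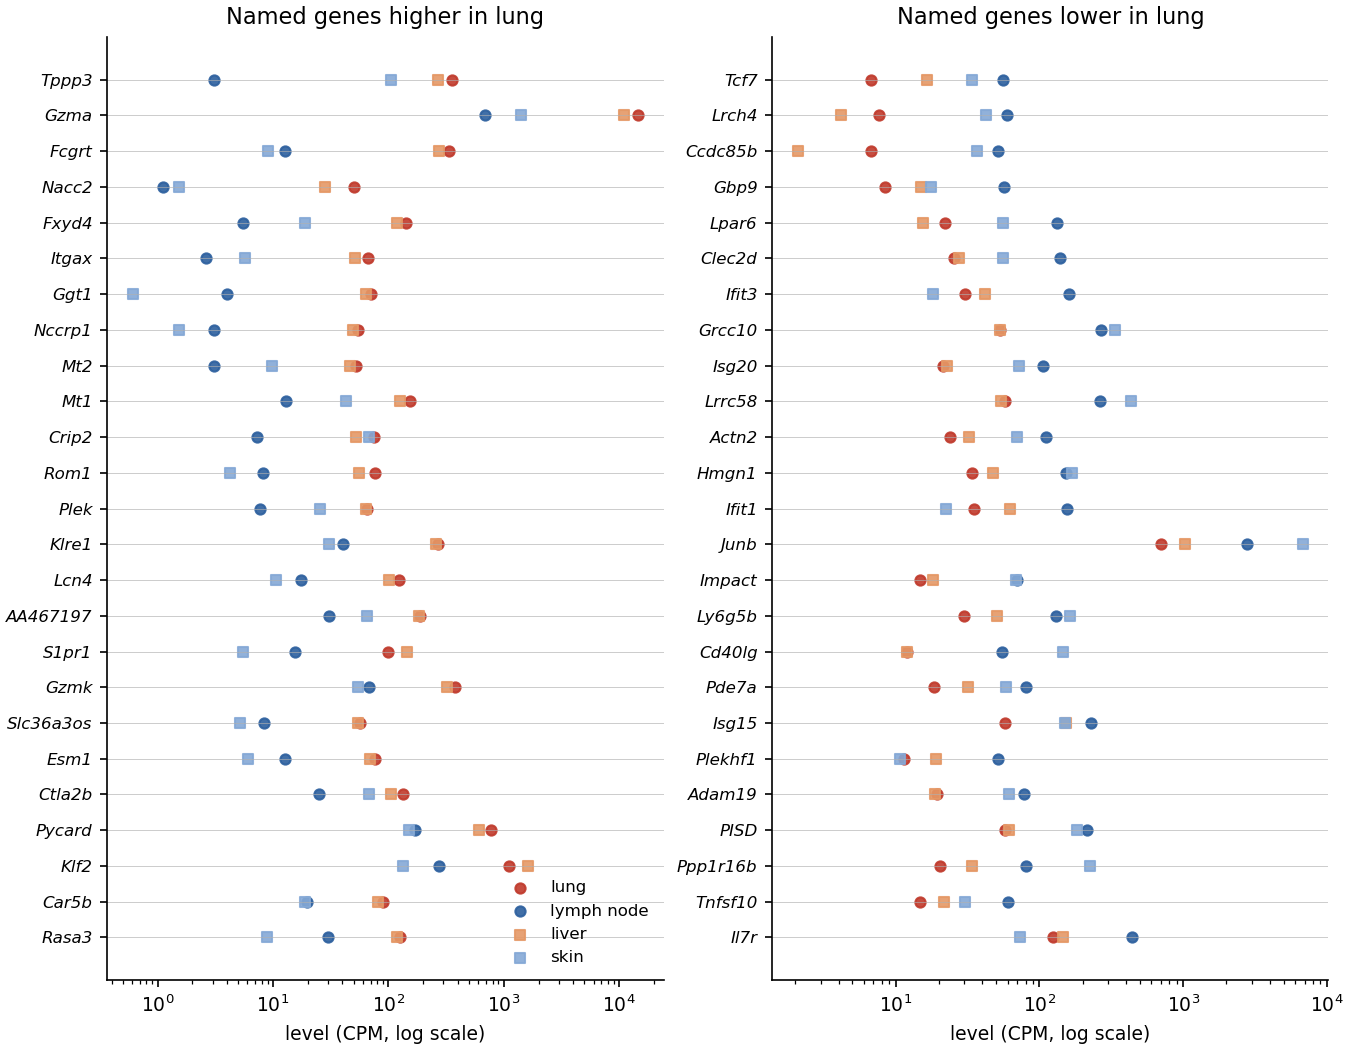
Levels of the 25 named higher and 25 named lower genes in lung and lymph node (circles) and in liver and skin (squares), in CPM on log scales. Lung and liver lie side by side for most genes, and Crip2, Il7r, Ifit1, Ifit3, Isg15 and Plekhf1 are the exceptions.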

How the data were processed

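Cells were assigned to a tissue from the names of the columns, with 0 columns left unused. The authors deposited a single table of whole-number counts per gene and cell. Per the submitters' processing notes, Bowtie and RSEM were used with the mm10 build, without version numbers. Unique molecular identifiers are not mentioned, and the filters on cells and genes were not given in the sources used here. CPM are a tissue's summed counts over its total, computed with Python 3.11.15, pandas 2.3.3 and scipy 1.17.1. Ratios carry the exact 95% conditional binomial interval, and 0 counts were replaced by 3 for the ratio but not for the interval. Genes with 20 or more summed counts entered the comparison, and calls were made at 2-fold. For shares, cells were thinned to 1886 counts, a depth that all but the lowest 10% reach, which left out 273 lung and 131 lymph node cells. Median counts per cell were 2943 in lung and 2649 in lymph node, so a gene of few CPM rests on a few counts. Doublets were not called, and an alternative left out the 5% of cells with the most counts.

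The 25 genes named in each direction had the interval bound farthest from equality. They needed 50 CPM in the higher tissue and detection in 10% of its cells. The rule passed over ribosomal, mitochondrial, receptor segment, immunoglobulin, pseudogene, predicted and multi-copy genes, and members of the lists could be named as well. A gene was called multi-copy where the last 500 bases of its longest GENCODE M21 transcript matched another gene at 95% identity over at least 200 bases (blastn 2.17.0). Members, lists and this comparison were chosen with earlier results of these data known. The lists, 29 in all, were matched to the table with 10 members found through older symbols. Ratios and intervals were checked on simulated data. Alternatives were other scalings, count minimums, sets of genes and sets of cells.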

Additional observations from a re-analysis of the deposited data

How the results depend on the processing

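The count of genes at least 2-fold higher in lung was 324. It was 214 with a summed count of at least 100 and 605 after centring on the running median by abundance. The 1660 genes at least 2-fold lower became 913 with size factors from median ratios, 911 with a summed count of at least 100 and 577 after centring. Centring and the choices of cells by marker counts were added after the data were seen. The median of the central memory list moved to -0.87 among cells with an Itgae count. That of the cell cycle list moved to -0.095 without cycling cells, where the median of all genes was -0.40. Those cells were picked by members of the list, so the fall was largely fixed by the choice. List medians near 0 turned positive with size factors for integrins, class I antigen processing, transcription factors, immediate early genes, metal and redox genes, glycolysis and signal regulators. No named gene that was past 2-fold changed direction under any alternative run. No paired analysis was possible because the columns carry no replicate or lane, and for the same reason no replicate could be left out. With 1 library per tissue, depth limits genes of a few CPM most, and no alternative reaches the difference between libraries, mice or digestion.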

Other observations

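Among 20 TGF-beta response genes, 1 stood at least 2-fold higher in lung and 8 lower, with a median log2 ratio of -0.82. Under size factors the median was -0.53 with 1 lower member, against a background share of 10.1%. Tgfbr1, the gene of a receptor chain, was 2.4-fold lower (1.89 to 3.07), Smad4, the gene of its shared signal carrier, 2.21-fold lower (1.58 to 3.11) and Ski, a repressor of that pathway, 2.16-fold lower (1.71 to 2.74). Regulators of G protein and Ras signals had 3 members higher and 5 lower among 24, with a median of -0.14 and 0.15 under size factors. Rasa3, which damps Ras and Rap1, stood at 125 CPM in lung, 118 in liver, 8.81 in skin and 30.2 in lymph node, and Gna15, a G protein chain gene, at 185 CPM in lung, 205 in liver, 72.3 in skin and 56.3 in lymph node. Rgs10, which shortens G protein signals, was 2.57-fold lower (2.35 to 2.81). Inhibitory receptor and exhaustion genes had 3 higher and 5 lower among 13 (median -0.45), with Havcr2, the gene of TIM-3, 2.24-fold higher (1.73 to 2.93) and Lag3 2.3-fold lower (1.95 to 2.72).

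Genes of the amino acid response had 4 members higher and 1 lower among 20 (median 0.34), and those past 2-fold were counted in at most 2.0% of lung cells, under the share of Lyz2. Class I antigen processing had 0 higher and 2 lower among 19 (median -0.24), one of them Nlrc5, the gene of its main transcriptional activator, 2.36-fold lower (1.89 to 2.95). Bcl2 family genes had 0 higher and 3 lower among 21 (median -0.43), of which Bcl2a1b and Bcl2a1d are near-identical copies, so their values are uncertain. Lipid genes had 1 higher and 3 lower among 21 (median 0.03). Heat shock genes had 0 higher and 1 lower among 17 (median -0.32), and Hspa1a, a stress-inducible chaperone gene, stood at 108 CPM in lung, 273 in liver, 349 in skin and 100.2 in lymph node. Glycolysis and hypoxia genes had a median of -0.10, and 0.18 under size factors.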
